A study of Mus musculus with 13 samples.

Results

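The subunits of the mitochondrial ATP synthase and the carriers and channels of the mitochondrial membranes were described in Sertoli cells of adult male mice. Members were the rows of the count table whose symbol starts with Atp5 or with Slc25a and a number, together with *Ucp1* to *Ucp3*, *Mpc1*, *Mpc2* and *Vdac1* to *Vdac3*, and pseudogenes were left out. This rule, which used no measured value, gave 72 genes of the 27111 with a name in the table. Of these, 17 encode ATP synthase subunits and 55 encode carriers or channels. All 17 subunits and 50 of the 55 carriers and channels had enough counts for the test. *Slc25a29*, *Slc25a34*, *Slc25a48*, *Ucp1* and *Ucp3* did not.

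RNA was sequenced from testis of 6 control and 7 MSUS males of the genotype labelled Bl6 wt (wild-type), each sample from another animal. MSUS stands for unpredictable separation from the mother combined with unpredictable stress of the mother. MSUS pups were taken from the dam for 3 h each day between postnatal days 1 and 14, and the dam meanwhile swam in water of 18°C for 5 min or was restrained for 20 min, while control litters were left undisturbed. The males were adult (3 to 5 months) when cells were taken. The cells were sorted from digested testis as diploid, large and with a high signal of a mitochondrial dye, so that selection itself used a property of mitochondria. Litter was not analysed here.

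ATP synthase is the rotary enzyme of the inner mitochondrial membrane. Protons flow through a ring of c subunits and turn a central stalk, which drives the synthesis of ATP in the F1 head, while a peripheral stalk holds the head still. Carriers of the SLC25 family exchange ADP for ATP and bring in phosphate, metabolites and cofactors, and VDAC channels let small molecules pass the outer membrane. Sertoli cells nourish germ cells and are known for supplying them with lactate made by glycolysis.

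The libraries held between 12701664 and 18649819 estimated counts, of which 9776853 to 14383367 belonged to named genes. Each level is given as log2 CPM, where CPM are counts scaled to a common library size (TMM-normalized, prior count 2). The 5 Sertoli cell markers together had 11903 to 14793 CPM in controls, and 12118 to 14435 CPM in the MSUS group. The 4 markers of elongated spermatids (*Prm1*, *Prm2*, *Tnp1*, *Tnp2*) summed to 847 to 1378 CPM in controls and 730 to 1775 CPM in MSUS samples, so germ cell RNA was present in every library. The 3 macrophage markers summed to at most 1.996 CPM in any sample. In such bulk samples, fewer cells of a type and less RNA per cell cannot be told apart.

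In control samples the subunits of ATP synthase were ordered per length, as log2 CPM per kilobase of the median coding transcript of each gene. *Atp5h*, which encodes subunit d of the peripheral stalk, was highest with 8.92 ± 0.14 (SD, n = 6) on this scale. It was followed by *Atp5c1*, the gamma subunit of the central stalk, with 7.84 ± 0.11 and by *Atp5b*, the catalytic beta subunit of the head, with 7.72 ± 0.12 log2 CPM per kilobase (SD, n = 6 for each). Within a control sample *Atp5h* exceeded *Atp5c1* by 1.08 ± 0.10 and *Atp5c1* exceeded *Atp5b* by 0.12 ± 0.095 log2 CPM per kilobase (SD), each in 6 of 6 samples. The second gap was small, with 0.0125 as the lowest value, and it depends on the length. With the principal transcripts *Atp5b* was higher, with 7.72 against 7.62 for *Atp5c1*.

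The alpha subunit *Atp5a1* had 7.25 ± 0.092 log2 CPM per kilobase, close to the accessory subunit *Atp5mpl* with 7.27 ± 0.24 and the stalk subunits *Atp5o* with 7.17 ± 0.16 and *Atp5j* with 7.09 ± 0.064 (SD, n = 6 for each). Neighbours among these 4 genes differed within a control sample by 0.020 to 0.083 on average, with SDs of 0.14 to 0.20 and no order that held in 6 of 6 samples, so their order did not exceed the spread. The lower part of the order held *Atp5k*, *Atp5pb*, *Atp5md*, *Atp5g3*, *Atp5d*, *Atp5l*, *Atp5j2*, *Atp5e*, *Atp5g2* and *Atp5g1*, from 6.05 down to 4.18 log2 CPM per kilobase. The place of a gene depends on the length it is given, and *Atp5h* was first with 4 different lengths, between 7.69 with the union of all exons and 9.28 with the shortest principal transcript. Without division by length, *Atp5h* with 8.24 log2 CPM lay below *Atp5b* with 8.66 and *Atp5a1* with 8.61. *Atp5g1* moved most within the c subunit family and had 6.35 log2 CPM per kilobase with its shortest principal transcript against 3.30 with the union of its exons.

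**Figure D1:**
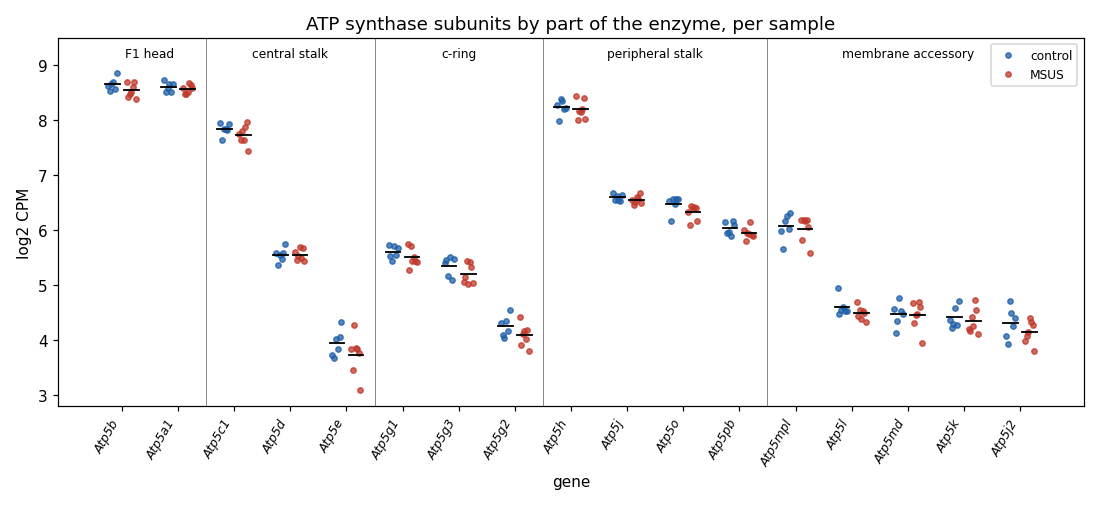
Level of the 17 ATP synthase subunits in each sample, in log2 CPM on the y axis, with 6 control samples in blue, 7 MSUS samples in red and group means as black lines. The genes are grouped by part of the enzyme and not corrected for length, so levels compare groups within a gene. The groups overlap for each gene, and 16 of 17 fitted log2 fold changes lay below 0.

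The spread between control animals was small for most subunits. The SD of log2 CPM was lowest for *Atp5j* with 0.064 and highest for *Atp5j2*, a small subunit of the membrane part, with 0.29 (n = 6). *Atp5e*, the epsilon subunit of the central stalk, had the lowest counts, with 99 to 223 per library, and a control SD of 0.24 log2 CPM.

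Families in which several genes encode the same kind of protein were compared within each control sample. For a mouse gene family the reads can only be assigned where the copies differ, and the libraries were read from one end over 100 bp. The stretches of 100 coding bases in which the 3 members of a family were most alike are shown to give the letters by which a read of this length tells them apart, with capitals at the positions that are not the same in all 3 genes (GENCODE vM21, GRCm38, 5′ to 3′ on the coding strand).

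For the c subunit, whose 3 genes encode one mature protein with different import sequences, 23 of the 100 positions differ. The stretches lie in coding exons at chr11:96073133-96073536, chr15:102663043-102665067 and chr2:73908622-73909197, each across an exon junction and on the minus strand, so that each range holds an intron.
Atp5g1: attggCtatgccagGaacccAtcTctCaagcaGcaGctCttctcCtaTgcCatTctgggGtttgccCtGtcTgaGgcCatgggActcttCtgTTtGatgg
Atp5g2: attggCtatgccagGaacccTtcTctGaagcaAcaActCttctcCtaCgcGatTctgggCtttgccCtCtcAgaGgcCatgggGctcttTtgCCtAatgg
Atp5g3: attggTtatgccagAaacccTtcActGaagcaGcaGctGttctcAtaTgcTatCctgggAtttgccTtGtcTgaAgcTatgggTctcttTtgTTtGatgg
*Atp5g1* and *Atp5g2* had 14 mismatches in this stretch, the fewest of the 3 pairs, so any pair of these genes can be told apart there. Pseudogenes were not compared.

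Per length of the median coding transcript, *Atp5g3* held 55.4% ± 2.42 of the CPM of the 3 c subunit genes in controls, *Atp5g2* 26.98% ± 1.93 and *Atp5g1* 17.6% ± 1.03 (SD, n = 6). *Atp5g3* exceeded *Atp5g2* in 6 of 6 control samples, by 1.03 ± 0.16 log2 CPM per kilobase (SD). In this and the following families the leading gene was chosen on the same samples, so that a test of its lead would only restate in how many samples it led, and no p is given. With the shortest principal transcripts, or without division by length, *Atp5g1* came first. In log2 CPM not corrected for length, the control means were 5.60 for *Atp5g1*, 5.35 for *Atp5g3* and 4.25 for *Atp5g2*.

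The ADP/ATP carriers exchange ATP made in the matrix for ADP, and *Slc25a31* is the form known from male germ cells. Their most alike stretches lie at chr8:46209493-46210895 on the minus strand, chrX:36795758-36796858 on the plus strand and chr3:40709058-40709157 on the plus strand, in coding exons, and 30 of 100 positions differ.
Slc25a4: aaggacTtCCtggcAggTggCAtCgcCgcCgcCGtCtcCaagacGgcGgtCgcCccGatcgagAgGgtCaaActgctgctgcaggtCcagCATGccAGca
Slc25a5: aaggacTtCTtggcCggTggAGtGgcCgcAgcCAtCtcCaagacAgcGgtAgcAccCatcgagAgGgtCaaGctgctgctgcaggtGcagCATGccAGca
Slc25a31: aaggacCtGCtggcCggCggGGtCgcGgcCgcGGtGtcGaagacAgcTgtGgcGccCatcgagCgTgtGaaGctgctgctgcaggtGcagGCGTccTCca
*Slc25a4* and *Slc25a5* differed at 13 of these positions, the closest pair of the 3 families shown.

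*Slc25a5* and *Slc25a4* were at nearly the same level in controls, with 7.69 ± 0.12 and 7.64 ± 0.093 log2 CPM per kilobase (SD, n = 6). *Slc25a5* was higher in 4 of 6 control samples, and the difference of 0.046 ± 0.068 log2 (SD) was smaller than its spread between samples. Its sign depends on the length, with −0.073 on the union of exons and −0.59 without division by length. *Slc25a31* held 0.611% ± 0.177 of the CPM per kilobase of the 3 genes (SD, n = 6), with 32 to 107 counts per library.

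The VDAC channels, the main pores of the outer membrane, were compared in the same way. Their stretches lie in coding exons at chr11:52384017-52385621 (plus strand), chr14:21838558-21840457 (plus strand) and chr8:22579104-22580400 (minus strand), each across an exon junction, and 35 of 100 positions differ.
Vdac1: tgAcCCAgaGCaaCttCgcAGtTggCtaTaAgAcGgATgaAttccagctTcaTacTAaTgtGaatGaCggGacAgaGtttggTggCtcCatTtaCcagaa
Vdac2: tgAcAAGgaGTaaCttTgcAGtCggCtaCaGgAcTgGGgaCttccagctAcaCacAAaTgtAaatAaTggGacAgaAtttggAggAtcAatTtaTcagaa
Vdac3: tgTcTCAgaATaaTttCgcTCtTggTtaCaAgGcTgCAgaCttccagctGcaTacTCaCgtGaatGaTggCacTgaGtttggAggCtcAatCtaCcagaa
*Vdac3* held 44.3% ± 1.77 of the CPM per kilobase of the 3 genes, *Vdac2* 36.3% ± 1.64 and *Vdac1* 19.3% ± 0.517 (SD, n = 6). *Vdac3* exceeded *Vdac2* in 6 of 6 control samples, by 0.29 ± 0.12 log2 CPM per kilobase (SD), and it led with each of 5 ways of treating length. The shares and the size of the gap are those of the median coding transcript and depend on the length. With the principal transcripts *Vdac3* had 8.06 log2 CPM per kilobase against 6.66 for *Vdac2*. On the union of exons *Vdac1* came second, with 5.98 against 5.37 for *Vdac2*.

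Among the uncoupling proteins, which carry ions across the inner membrane, *Ucp2* held 99.97% ± 0.014 of the CPM per kilobase (SD, n = 6). *Ucp3* had 13 counts over the 6 control libraries and 10 over the 7 MSUS libraries. *Ucp1*, the heat-producing form of brown fat, had 0 counts in controls, which allows up to 3 counts or 0.0416 CPM by counting error alone, and 1 count in MSUS samples.

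Of the carriers of amino acids, those of aspartate and glutamate had 1 gene far above the other in controls, and those of ornithine did not. *Slc25a13*, the aspartate/glutamate carrier citrin, exceeded *Slc25a12*, known as aralar, by 2.98 ± 0.081 log2 CPM per kilobase (SD, n = 6). *Slc25a18* exceeded *Slc25a22*, both carriers of glutamate, by 3.97 ± 0.54. *Slc25a2* was 0.99 ± 0.72 above *Slc25a15*, both carriers of ornithine, but 0.34 below it in log2 CPM without division by length.

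For the import of iron, *Slc25a28* (mitoferrin 2) exceeded *Slc25a37* (mitoferrin 1, known from red blood cell precursors) by 3.25 ± 0.69 log2 CPM per kilobase in controls (SD, n = 6). *Slc25a23* led the ATP-Mg/phosphate carriers, 2.11 ± 0.14 above *Slc25a25*, and *Slc25a24* and *Slc25a41* followed. The size of this lead depends on the length. With the principal transcripts *Slc25a23* had 3.72 log2 CPM per kilobase against 3.39 for *Slc25a25*. On the union of exons it had 3.06 against 2.96 for *Slc25a24*, which came second there. *Slc25a36* was 0.80 ± 0.16 above *Slc25a33*, both carriers of pyrimidine nucleotides, but 0.45 below it on the union of exons. In these 6 families the leading gene was higher in 6 of 6 control samples on the median coding transcript. Of the 10 families, 6 had the same leading gene with all 5 ways of treating length, namely the uncoupling proteins, VDAC channels, aspartate/glutamate carriers, glutamate carriers, mitoferrins and ATP-Mg/phosphate carriers.

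**Figure D2:**
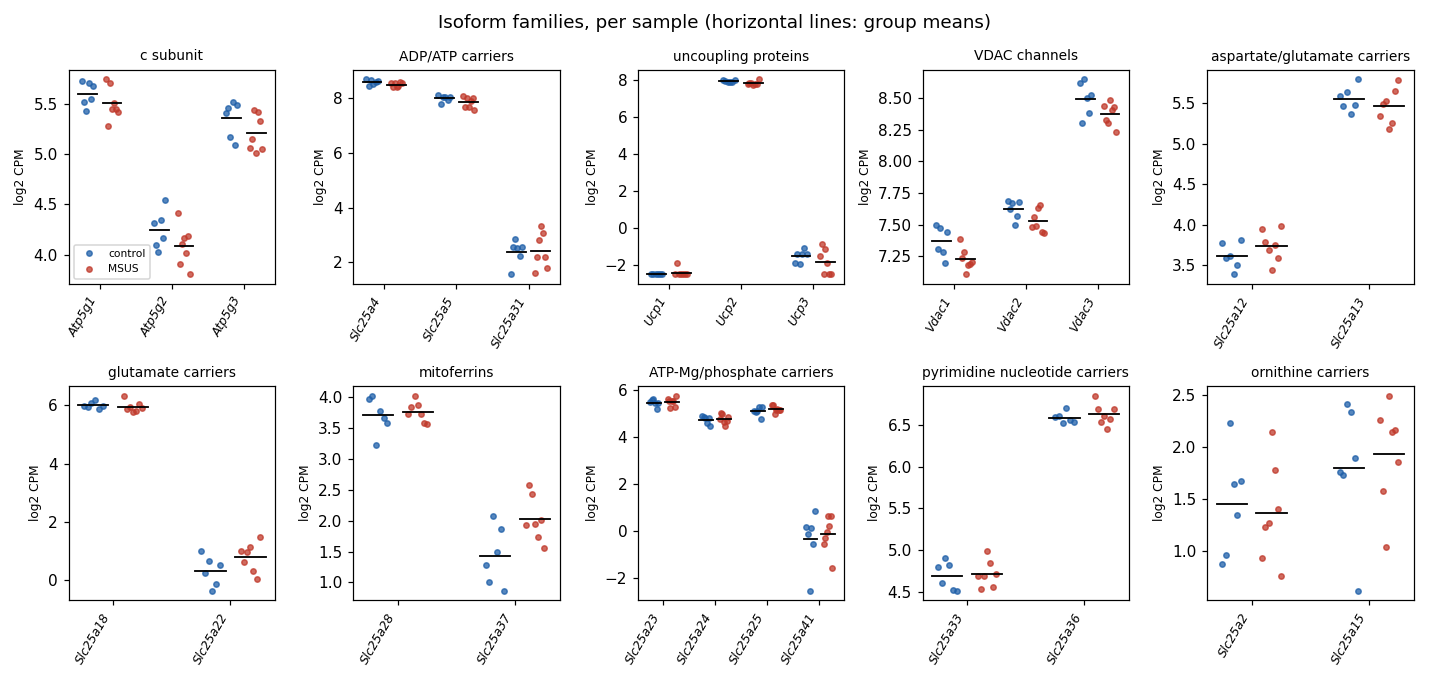
Level of each gene of 10 families in each sample, in log2 CPM on the y axis and not corrected for length, with control samples in blue, MSUS samples in red and group means as black lines. *Ucp2*, *Slc25a13*, *Slc25a18*, *Slc25a28* and, on this uncorrected scale, *Slc25a36* lie far above their relatives in both groups. *Slc25a37* has the larger group difference of the mitoferrins.

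Over all carriers and channels, the 5 highest per length in controls were *Ucp2* with 8.36, *Vdac3* with 8.02, *Vdac2* with 7.73, *Slc25a5* with 7.69 and *Slc25a4* with 7.64 log2 CPM per kilobase. Within control samples *Vdac2* exceeded *Slc25a4* in 6 of 6, by 0.095 ± 0.083 log2 CPM per kilobase (SD), while *Vdac2* exceeded *Slc25a5* in 4 of 6, by 0.049 ± 0.13, so the place of *Slc25a5* between them was not resolved. The order of *Vdac2* and *Slc25a4* depends on the length. It was reversed with the principal transcripts (6.66 against 7.64) and with the union of exons (5.37 against 7.35). The level of *Ucp2* was 5.93 with its principal transcript, since shorter transcripts lower its median length. On principal transcripts it thus lay below *Vdac3* (8.06), *Slc25a5* (7.69), *Slc25a4* (7.64) and *Vdac2* (6.66), so its first place depends on the length. The lowest 3 that could be tested were *Slc25a35* with −1.25, *Slc25a47* with −0.998 and *Slc25a27* with −0.67 log2 CPM per kilobase, at 4 to 30 counts per library.

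The comparison of MSUS with control samples asked whether stress in early life goes with another level of these genes in the adult. No member passed an adjusted p of 0.05 in limma voom, with 0.878 as the smallest adjusted p, and 0% of the 14421 genes tested did. The count over all genes was also 0 in edgeR's quasi-likelihood test and in DESeq2. At an unadjusted p under 0.05, limma voom had 781 genes or 5.42% of those tested (2.4% lower and 3.02% higher in MSUS), edgeR 793 and DESeq2 835. The members were at 4 of 67 (5.97%), a share close to this background.

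Of the 17 ATP synthase subunits, 0 had an unadjusted p under 0.05. Their log2 fold changes lay between −0.21 for *Atp5e* and 0.0055 for *Atp5d*, the delta subunit of the central stalk, with a median of −0.087. Below 0 were 16 of 17, against 50.5% of all genes tested, whose median was −0.0018. By part of the enzyme these were 2 of 2 in the head, 2 of 3 in the central stalk, 3 of 3 c subunit genes, 4 of 4 in the peripheral stalk and 5 of 5 accessory subunits. The subunits shifted together within single samples, so the 16 are not separate observations.

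The subunit with the lowest p was *Atp5o* (chr16:91925214-91931687), the peripheral stalk subunit that confers sensitivity to oligomycin. It had 6.17 to 6.57 log2 CPM in controls with a median of 6.55, and 6.10 to 6.45 in MSUS samples with a median of 6.40. The groups overlapped through control sample 10, which was the low one of its group. The log2 fold change was −0.15 ± 0.081 (SE), with an unadjusted p of 0.0747 and an adjusted p of 0.878 (limma voom), and 7 of 7 MSUS samples lay below the control mean.

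The catalytic subunit *Atp5b* (chr10:128083273-128090391) had 8.54 to 8.86 log2 CPM in controls (median 8.64) and 8.39 to 8.69 in MSUS samples (median 8.51). Here 4 of 7 MSUS samples lay below all controls, while the log2 fold change of −0.11 ± 0.065 (SE) had an unadjusted p of 0.109 (limma voom). *Atp5e* had 3.67 to 4.32 log2 CPM in controls (median 3.92) and 3.09 to 4.28 in MSUS samples (median 3.83), the widest range of the subunits. For *Atp5a1* the ranges were 8.51 to 8.73 and 8.47 to 8.69 log2 CPM, with a log2 fold change of −0.044 ± 0.054 (SE).

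The deviation from the control mean, taken as the median over the 17 subunits, was not spread evenly over the samples. It was −0.23 log2 in MSUS sample 5 and −0.30 in MSUS sample 26, where 17 of 17 subunits lay below their control mean. In the other 5 MSUS samples it lay between −0.088 and −0.0076. Control sample 10, with −0.18 and 16 of 17 subunits below the control mean, came next, and the other 5 controls lay between −0.056 and 0.088. Leaving out 1 sample at a time gave 13 to 17 subunits below 0 and medians from −0.12 to −0.059.

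The level of *Malat1*, a long non-coding RNA that stays in the nucleus and was chosen because earlier results of these data were known, was set beside these values. It was 9.16 to 10.69 log2 CPM in controls and 10.16 to 11.28 in MSUS samples (log2 fold change 0.70 ± 0.22 SE, unadjusted p 0.00505 and adjusted p 0.878 in limma voom), and MSUS samples 5, 6 and 26 were above all controls. Control sample 10 had the highest *Malat1* level of its group. MSUS sample 6 had a higher *Malat1* level (10.80) than control sample 10 (10.69), but a subunit deviation of −0.039 log2. With *Malat1* as a covariate, 3 of 17 subunits had a log2 fold change below 0 and the median was 0.027. Without MSUS samples 5, 6 and 26 it was 11 of 17 with a median of −0.029. *Malat1* itself differed between the groups, so here and below a fit with this covariate cannot separate *Malat1* from the group. Over all genes, the covariate lowered the count at an unadjusted p under 0.05 from 781 to 401 (limma voom). The share of counts from the mitochondrial genome was 1.26% to 2.48% in controls and 1.80% to 3.16% in MSUS samples, and with it as a covariate 10 of 17 subunits lay below 0 with a median of −0.027.

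**Figure D3:**
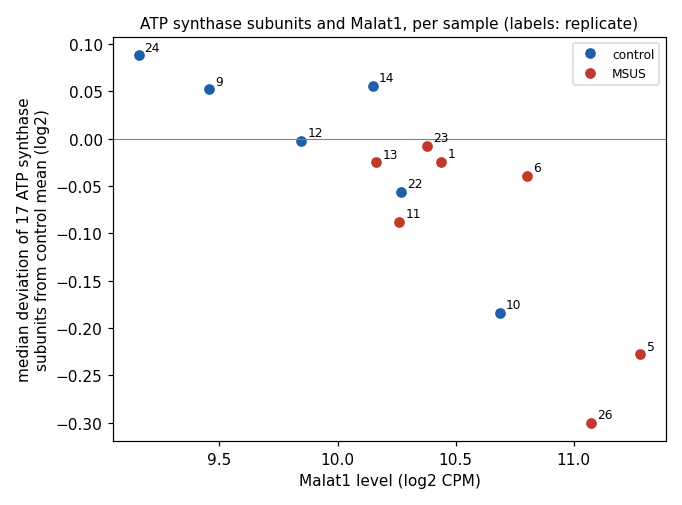
Median deviation of the 17 ATP synthase subunits from their control mean (y axis, log2) against the level of *Malat1* (x axis, log2 CPM), with 1 point per sample, controls in blue and MSUS in red, and replicate numbers as labels. MSUS samples 5 and 26 and control sample 10 combine the lowest subunit deviations, −0.23, −0.30 and −0.18, with *Malat1* levels of 11.28, 11.07 and 10.69, while MSUS sample 6 has −0.039 at a *Malat1* level of 10.80.

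Of the 50 carriers and channels tested, 4 or 8% had an unadjusted p under 0.05, 2 lower and 2 higher in MSUS. Below 0 were 26 of 50 with a median log2 fold change of −0.0072, near the values over all genes. Divided at a control mean of 6 log2 CPM, a limit set after the values were seen, 12 of the 14 more abundant members lay below 0 with a median of −0.066, and 14 of the 36 less abundant ones with a median of 0.033. Of all genes tested at or above this limit, 50.6% lay below 0.

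*Slc25a42* (chr8:70184340-70212305), a carrier of coenzyme A and ADP, had the lowest p of the members. In controls it had 1.99 to 2.96 log2 CPM with a median of 2.21, and in MSUS samples 2.51 to 3.30 with a median of 2.88. All 7 MSUS samples lay above the control mean and 3 above every control, and the groups overlapped through the higher controls. The log2 fold change was 0.60 ± 0.19 (SE), with an unadjusted p of 0.00491 and an adjusted p of 0.878 (limma voom). The unadjusted p stayed between 0.00129 and 0.0156 when each sample was left out in turn, and with *Malat1* as a covariate the log2 fold change was 0.43 with a p of 0.0678 (limma voom). The gene had 39 to 93 counts per library, and these were not whole numbers in the deposited table in all 13 samples, the cause of which was not tested.

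*Slc25a37* (chr14:69241848-69285112), which brings iron into mitochondria, had 0.87 to 2.08 log2 CPM in controls with a median of 1.39, and 1.56 to 2.58 in MSUS samples with a median of 1.95. Again 7 of 7 MSUS samples lay above the control mean, 2 of them above every control. The log2 fold change was 0.61 ± 0.25 (SE), with an unadjusted p of 0.0266 and an adjusted p of 0.878 (limma voom). The unadjusted p was over 0.05 without control sample 10 or 24 or MSUS sample 5 or 6, with 0.0806 as the highest. With the share of mitochondrially encoded counts as a covariate the log2 fold change was 0.35 (unadjusted p 0.215, limma voom), and with *Malat1* 0.48 (unadjusted p 0.144). Its counts of 17 to 64 were not whole in any library, and its locus overlaps that of *Gm20236* on the same strand, where sharing of reads was not tested.

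*Vdac1* (chr11:52360860-52389397) had 7.20 to 7.495 log2 CPM in controls with a median of 7.38, and 7.11 to 7.38 in MSUS samples with a median of 7.20. In MSUS, 6 of 7 samples lay below the control mean and 3 below every control. Its log2 fold change was −0.14 ± 0.063 (SE), with an unadjusted p of 0.0399 and an adjusted p of 0.878 (limma voom), and the p was over 0.05 in 8 of the 13 fits without 1 sample (highest 0.105, without control sample 9).

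The other channels had values near it. *Vdac3* had a log2 fold change of −0.12 ± 0.063 (SE, unadjusted p 0.0754 in limma voom) and lay under the control mean in 7 of 7 MSUS samples. *Vdac2* had −0.094 ± 0.056 (SE, unadjusted p 0.109 in limma voom) with 4 of 7 below every control. With *Malat1* as a covariate, the log2 fold change was −0.088 for *Vdac1* and 0.0017 for *Vdac3*.

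*Slc25a10* (chr11:120491840-120499187), which exchanges malate or succinate for phosphate, had 4.62 to 4.85 log2 CPM in controls with a median of 4.66, and 4.23 to 4.71 in MSUS samples with a median of 4.51. Below every control were 5 of 7 MSUS samples. The log2 fold change was −0.19 ± 0.090 (SE), with an unadjusted p of 0.0485 and an adjusted p of 0.878 (limma voom), and the p was over 0.05 in 9 of the 13 fits without 1 sample (highest 0.125, without MSUS sample 6). It was 0.0523 in edgeR and 0.0585 in DESeq2. Its fold change on the log2 scale was −0.085 with the mitochondrial share as a covariate, −0.10 with *Malat1* and −0.091 without MSUS samples 5, 6 and 26, with unadjusted p of 0.349, 0.354 and 0.372 (limma voom).

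**Figure D4:**
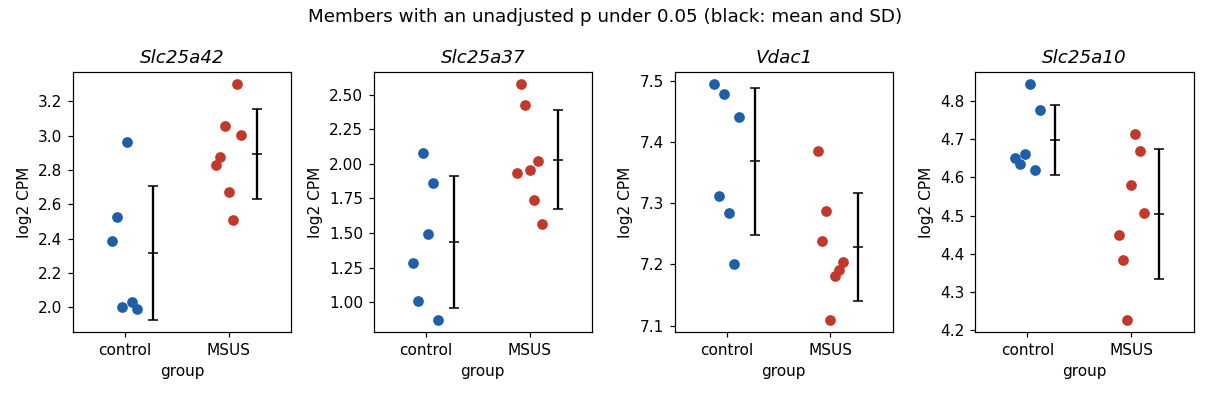
Level of the 4 members with an unadjusted p under 0.05 in each sample, in log2 CPM on the y axis, with control samples in blue, MSUS samples in red and the group mean with SD in black. All 7 MSUS samples of *Slc25a42* and *Slc25a37* lie above the control mean, and 5 of 7 MSUS samples of *Slc25a10* lie below every control, while the groups overlap for each gene.

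*Ucp2* (chr7:100493337-100502020) showed a small difference with little spread. It had 7.86 to 7.99 log2 CPM in controls with a median of 7.93, and 7.74 to 8.02 in MSUS samples with a median of 7.79. Of the MSUS samples, 6 of 7 lay below every control and MSUS sample 26 above every control. The log2 fold change was −0.10 ± 0.054 (SE), with an unadjusted p of 0.0704 (limma voom). The p was under 0.05 with library size alone (0.045), sample quality weights (0.0399) and unnamed features kept (0.0461). It was over 0.05 in 8 other alternatives. Among these were the covariates mitochondrial share (0.0519), *Malat1* (0.0542) and elongated spermatids (0.142, limma voom). Without MSUS sample 26 the log2 fold change was −0.13 with a p of 0.01, and without MSUS samples 5, 6 and 26 −0.16 with 0.00915 (limma voom). Both fits leave out the MSUS sample that lay above every control, so their lower p is no further evidence of a difference. With any other single sample left out the p was at least 0.0619.

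*Slc25a30* (chr14:75760117-75787037), added after its values were seen, also lay close to the threshold. It had 7.09 to 7.44 log2 CPM in controls with a median of 7.33, and 7.05 to 7.32 in MSUS samples with a median of 7.18, so that the groups overlapped over most of their range. The overlap came through control sample 22 (7.09), where the next control had 7.30, and through MSUS sample 13 (7.32). Its log2 fold change was −0.13 ± 0.063 (SE), with an unadjusted p of 0.0516 in limma voom and 0.0478 in edgeR. The p was as low as 0.00771 without control sample 22 (limma voom). That fit leaves out the lowest control, so its lower p is no further evidence of a difference. With *Malat1* as a covariate the log2 fold change of *Slc25a30* was −0.064 (p 0.399, limma voom).

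The ADP/ATP carriers had log2 fold changes of −0.085 ± 0.054 (SE) for *Slc25a4* and −0.14 ± 0.085 (SE) for *Slc25a5*, with unadjusted p of 0.134 and 0.122 (limma voom). *Mpc1*, a subunit of the carrier that brings pyruvate into mitochondria, was added after its values were seen because 7 of 7 MSUS samples lay below the control mean. The share of all genes with this pattern is not given here, so it does not set *Mpc1* apart. It had 4.17 to 4.69 log2 CPM in controls (median 4.43) and 4.06 to 4.40 in MSUS samples (median 4.26), with a log2 fold change of −0.18 ± 0.11 (SE, unadjusted p 0.110 in limma voom). No member had all MSUS samples below or above all controls, a pattern that 0.0555% and 0.0763% of all genes tested had.

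**Figure D5:**
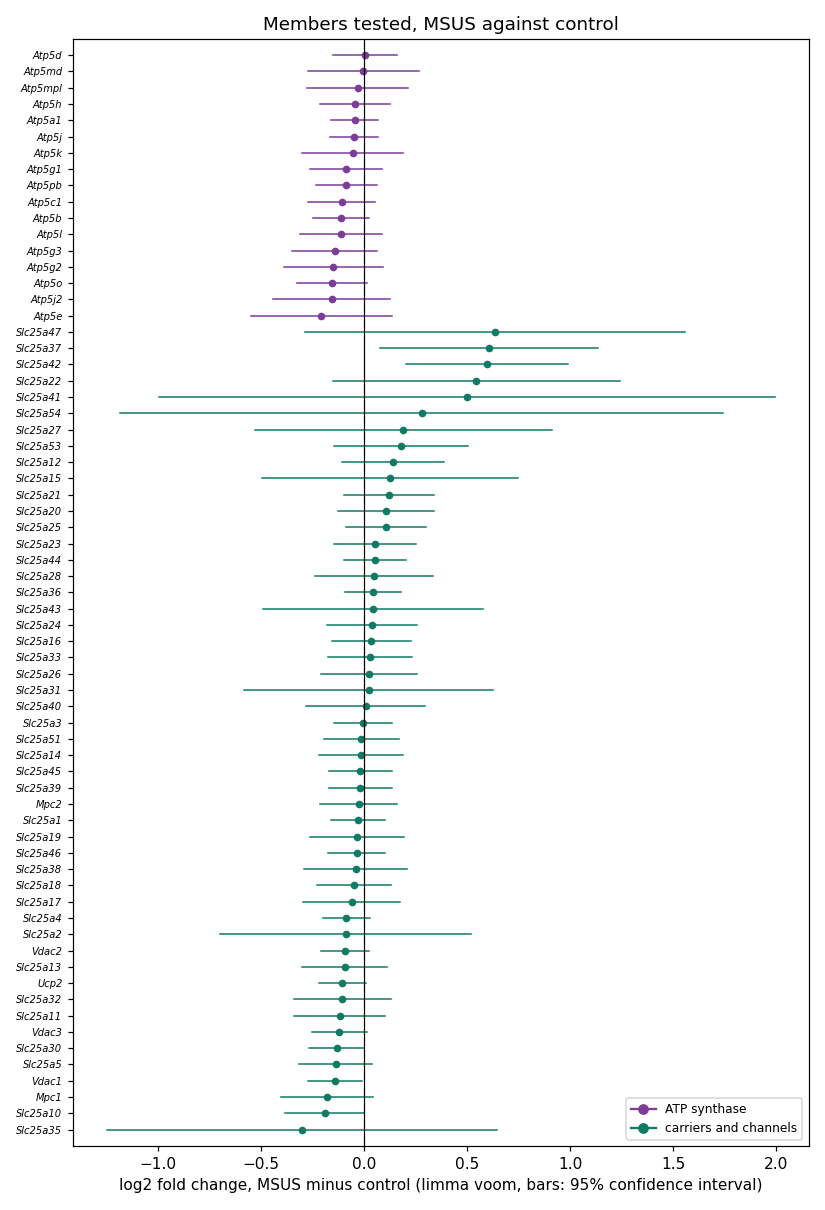
Log2 fold change of the 67 members tested, MSUS minus control, on the x axis with 95% confidence intervals as bars (limma voom), 17 ATP synthase subunits in purple and 50 carriers and channels in green. The intervals of *Slc25a42* and *Slc25a37* lie above 0 and those of *Vdac1* and *Slc25a10* below 0, and no member passed after adjustment over all genes.

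The balance within the 10 families was also compared, which does not depend on library scaling. The difference between the leading and the next gene changed by −0.55 to 0.22 log2 between control and MSUS samples, and no change passed an adjusted p of 0.05 with all samples (exact permutation test, every split of 13 samples). The lowest p was 0.0385, adjusted 0.346, for *Slc25a13* minus *Slc25a12*, whose difference was 2.98 ± 0.081 log2 CPM per kilobase in controls and 2.76 ± 0.22 in MSUS samples (SD, n = 6 and 7). Without MSUS sample 23 this change was −0.28 with an adjusted p of 0.0433 in the same exact permutation test. That sample had the highest difference of all, 3.098 against at most 3.066 in controls. Leaving it out removes the sample that goes against the change, so the lower p is no further evidence of a change. With any other sample left out the adjusted p was at least 0.246.

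*Slc25a31* was set against germ cell markers, since germ cell RNA was present in the libraries although the sort kept diploid cells and would remove haploid spermatids. It had 1.56 to 2.86 log2 CPM in controls and 1.601 to 3.33 in MSUS samples, with a log2 fold change of 0.024 ± 0.29 (SE). Over 13 samples its level correlated with the mean level of 4 round spermatid markers with Pearson's r of 0.727 (permutation p = 0.00348, adjusted 0.0104 over 3 lists) and Spearman's rho of 0.725 (permutation p = 0.0065, adjusted 0.011). For elongated spermatids r was 0.642 (permutation p = 0.0174, adjusted 0.0261) and rho 0.714 (permutation p = 0.00733, adjusted 0.011). For spermatocytes r was 0.593 (permutation p = 0.0274, adjusted 0.0274) and rho 0.484 (permutation p = 0.0977, adjusted 0.0977).

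Without the 2 samples farthest from the median of each list, r was 0.539, 0.441 and 0.420 for round spermatids, elongated spermatids and spermatocytes, with permutation p of 0.0869, 0.176 and 0.197. This leaves 11 samples and a narrower range of the markers, so it cannot decide whether the relations rest on those samples. Within controls r was 0.024, 0.592 and 0.0014, and within MSUS samples 0.906, 0.682 and 0.783. All lists were detected in each group, and the round spermatid markers summed to 41.0 to 60.7 CPM in controls and 46.0 to 94.2 CPM in MSUS samples.

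Further genes of the same pathway were counted in the same fit. Of 9 further genes for ATP synthase, 2 mitochondrially encoded subunits and 7 for its assembly, 0 had an unadjusted p under 0.05 in limma voom and 6 lay below 0. The subunit *ATP6* had a log2 fold change of 0.14 ± 0.14 (SE) and *ATP8* of −0.085 ± 0.13 (SE). Of 20 further genes of mitochondrial transport that could be tested, 16 lay below 0, against 50.5% of all genes, and 1 (5%) had an unadjusted p under 0.05, against 5.42% of all genes. The 1 gene was *Sfxn3*, a sideroflexin of the inner membrane, with 6.60 to 6.87 log2 CPM in controls and 6.46 to 6.70 in MSUS samples and a log2 fold change of −0.19 ± 0.061 (SE, unadjusted p 0.00585, adjusted 0.878 in limma voom).

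Promoters, from 250 bases before to 50 bases after a gene's start, were searched on both strands for motifs of factors known to act on mitochondrial genes (RefSeq, GRCm38.p6). The NRF1 motif (GCGCA, any base, then GCGC) was found for 6 of 15 ATP synthase genes and 2 of 42 carriers and channels with a promoter sequence, against 4.603% of 32851 promoters and 10.98% of the genes tested. The ETS motif CCGGAAG was found for 6 of 15 and 9 of 42, against 8.86% of promoters and 18.8% of genes tested. *Atp5h* and *Atp5k* held both. The ERR motif TCAAGGTCA was found for *Atp5g3* alone, against 0.423% of promoters. These matches describe letters in a window and not binding.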

How the data were processed

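The authors trimmed single-end reads of 100 bp, assigned them with Salmon to GENCODE vM23 transcripts and deposited estimated counts per gene without normalization. The submitters' processing notes name Trim Galore 0.6.5 and Salmon 1.1.0. Libraries were made from 5 ng RNA with a stranded kit and 12 PCR cycles. How transcripts were summed to genes, and the strand setting, are not given in the sources used here. Depth was 12701664 to 18649819 counts per sample, which limits the precision of members with few counts.

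Estimated counts were rounded to whole numbers. The 27170 of 54281 features without a name, with 20.7% to 26.7% of the counts, were left out, and 0 columns were unmatched. Groups follow the sample labels. The main test used TMM, voom and limma as in the study's methods (limma 3.58.1, edgeR 4.0.16, R 4.3.3). Leaving out unnamed features and the low-count filter filterByExpr were choices made here. Adjustment was by Benjamini-Hochberg over 14421 genes. Alternatives were edgeR's quasi-likelihood test, DESeq2 1.42.0, other scalings and filters, sample weights, 3 covariates, and leaving out each sample. Exact permutation tests were two-sided, and correlations used 100000 permutations. The fits were tested on simulated data.

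Members and lists were chosen with earlier results of these data known. Named genes were all family members, all ATP synthase subunits, members with an unadjusted p under 0.05, the 5 highest and 3 lowest carriers, *Malat1*, *ATP6* and *ATP8*. Lengths and coordinates come from GENCODE vM21 (GRCm38), where 70 members matched by name and 2 by synonym. Of the 72 members, 39 had whole counts in all samples within 0.005. Markers of spermatogonia, Leydig, myoid and endothelial cells were also summed.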

Additional observations from a re-analysis of the deposited data

Results flagged for a closer look

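Levels of 40 named members and the within-sample differences of the families were checked for a sample that stood apart within its group, 100 groups in all, and 5 were found, the number that chance gives. *Atp5l* in control sample 9 had 4.95 log2 CPM, where the nearest control had 4.603. *Atp5o* in control sample 10 had 6.17, below the nearest control at 6.48. *Slc25a25* in control sample 22 had 4.77, below the nearest at 5.09. *Ucp2* in MSUS sample 26 had 8.02, above the nearest MSUS sample at 7.84. The difference *Slc25a2* minus *Slc25a15* in control sample 24 was 2.38 log2 CPM per kilobase, where the nearest control had 1.15.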

How the results depend on the processing

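Under each alternative 0 genes had an adjusted p under 0.05. The count at an unadjusted p under 0.05 over all genes was 1182 without the low-count filter, 1204 with the elongated spermatid covariate, 403 with the share of mitochondrially encoded counts as a covariate, 401 with the *Malat1* covariate and 462 without the 3 MSUS samples of highest *Malat1*, an alternative chosen after seeing the data, and 534 to 1121 with 1 sample left out. Among carriers and channels this count was 7 with sample weights, 2 with the mitochondrial share, 0 with *Malat1*, 2 without those 3 samples and 1 to 6 with 1 sample left out (1 without control sample 24 or MSUS sample 5, 6 without control sample 10 or 22). Among ATP synthase subunits it was 1 with library size alone and 0 to 1 with 1 sample left out. Subunits below 0 numbered 10 with the mitochondrial share and 3 with *Malat1*, where the median was 0.0269. The *Malat1* covariate gave log2 fold changes of 0.0017 for *Vdac3*, 0.003 for *Atp5o*, 0.0179 for *Atp5b*, 0.014 for *Atp5e* and 0.0395 for *Atp5a1*, and the mitochondrial share 0.0106 for *Atp5a1*. *Atp5d* was at −0.0124 with library size alone, −0.01 with sample weights, −0.001 with the spermatid covariate, −0.0016 with unnamed features kept and −0.0366 to 0.0423 with 1 sample left out. *Slc25a31* was at −0.2018 with the spermatid covariate and −0.1383 to 0.169 with 1 sample left out. Per-length differences turned to −0.0727 (*Slc25a5* minus *Slc25a4*) and −0.451 (*Slc25a36* minus *Slc25a33*) on the union of exons, and without length to −0.5882 (*Slc25a5* minus *Slc25a4*) and −0.3385 (*Slc25a2* minus *Slc25a15*). With 1 control left out, the differences ranged from 0.9806 to 1.068 (*Atp5g3* minus *Atp5g2*), 0.02264 to 0.05983 (*Slc25a5* minus *Slc25a4*), 10.7 to 10.89 (*Ucp2* minus *Ucp3*), 0.2612 to 0.3268 (*Vdac3* minus *Vdac2*), 2.965 to 3.007 (*Slc25a13* minus *Slc25a12*), 3.8 to 4.112 (*Slc25a18* minus *Slc25a22*), 3.097 to 3.47 (*Slc25a28* minus *Slc25a37*), 2.086 to 2.15 (*Slc25a23* minus *Slc25a25*), 0.7665 to 0.8502 (*Slc25a36* minus *Slc25a33*) and 0.708 to 1.098 (*Slc25a2* minus *Slc25a15*). The changes between groups ranged from −0.2801 to −0.1681 for *Slc25a13* minus *Slc25a12*, −0.0334 to 0.0916 for *Atp5g3* minus *Atp5g2*, −0.03519 to 0.06902 for *Slc25a36* minus *Slc25a33* and −0.3681 to 0.04449 for *Slc25a2* minus *Slc25a15*, and r of *Slc25a31* from 0.4441 to 0.7441 for spermatocytes, 0.6102 to 0.823 for round spermatids and 0.5395 to 0.8548 for elongated spermatids. Causes were not tested. No paired analysis was made because each sample came from another animal and the labels give no pairs.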

Other observations

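*Slc25a54*, a carrier gene next to *Slc25a24* on chromosome 3, had 0 counts in control sample 14 and 21 to 36 counts in the other 5 control libraries. In the MSUS libraries it had 9 to 30 counts. It was singled out after its values were seen, and the cause was not tested.

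Markers of cell types not described above summed to 29.8 to 64.9 CPM in controls and 38.6 to 79.9 CPM in MSUS samples for Leydig cells, to 7.56 to 57.9 and 10.7 to 84.6 CPM for peritubular myoid cells, to 47.4 to 61.2 and 45.1 to 68.2 CPM for endothelial cells, and to 191 to 243 and 178 to 262 CPM for spermatogonia. Their part in the levels of the members was not tested.

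*Atpif1*, the inhibitor of ATP synthase, which was added after its values were seen, had 8.50 ± 0.16 log2 CPM in controls and 8.47 ± 0.14 in MSUS samples (SD, n = 6 and 7), with a log2 fold change of −0.027 ± 0.076 (SE).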
